A study of Mus musculus with 9 samples.

Results

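The 10 genes described here are effectors of the Hippo pathway, Yap1, Wwtr1 (which encodes TAZ) and Tead1, and genes known as targets of YAP and TAZ, namely Ankrd1, Amotl1, Amotl2, F3, Lats2, Crim1 and Axl. They were taken as a list, without the CCN family, from 19858 genes with a probe set of their own. The list was chosen with earlier results of these data known, so its counts beside those of all genes are descriptions. All 10 passed the filter on dim probe sets that left 13335 genes tested. RNA came from 9 primary cultures, started from precursor-enriched cells of the heat-producing interscapular brown fat of male C57BL/6 mice aged 5 weeks and grown with insulin. There were 3 cultures in each group: a DMSO control (subjects 1 to 3), HA155 at 2.5 µM (subjects 4 to 6), which inhibits the LPA-making enzyme autotaxin (ATX), and lysophosphatidic acid (LPA, the 1-oleoyl form) at 5 µM (subjects 7 to 9). Exposure was during differentiation in the design text and at 9 days in vitro in the sample labels, so its length is not settled, and the cultures are mixed cells rather than a purified adipocyte population. Expression was measured on Affymetrix gene arrays with 1 array per culture, and precision is limited by their number. Levels are given as log2 intensity, in which a difference of 1 is a doubling, and are comparable between arrays for a gene but not between genes.

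In the Hippo pathway a chain of kinases that ends in LATS1 and LATS2 phosphorylates the coactivators YAP and TAZ and keeps them out of the nucleus. When the kinases are less active, for example on stiff substrates or after exposure to LPA, YAP and TAZ enter the nucleus and bind DNA through TEAD factors. In precursor cells of fat, TAZ is known to bind the adipogenic factor PPARγ and to restrain its target genes. An array measures transcript only, so the phosphorylation and location of YAP and TAZ were not measured in these cultures.

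Of the 10 genes 6 rose with LPA, and none fell. F3 rose most, 1.91-fold, followed by Ankrd1 (1.55-fold), Axl (1.43-fold), Tead1 (1.26-fold), Lats2 (1.25-fold) and Crim1 (1.24-fold), all at a limma adjusted p below 0.05. Ankrd1 lay just above the filter on dim probe sets in control, so its place in this order is uncertain. Of all genes tested, 12.2% rose by the same rule and 10.8% fell. The transcripts of both coactivators, Yap1 and Wwtr1, and of Amotl1 and Amotl2 did not pass. With HA155 none of the 10 genes passed, in a comparison in which 1.03% of all genes did.

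The promoters of 4 members are printed, chosen by their measured changes. Their letters do not all differ: Axl and Amotl2 each held 1 TEAD match and no AP-1 match. Ankrd1, F3 and Axl are the 3 with the largest changes with LPA, and Amotl2 is the member that changed least. Each run is the 250 bases before the annotated start, in RefSeq's table on build GRCm38.p6, written 5′ to 3′ on the gene's strand. Capitals mark GGAATG, the core letters of the TEAD motif, on either strand (CATTCC on the opposite one), or TGANTCA, the pattern searched for AP-1. In that pattern N is any base, which makes it a loose one, and its reverse complement is the same pattern.
Ankrd1 (chr19:36119845-36120094, minus strand): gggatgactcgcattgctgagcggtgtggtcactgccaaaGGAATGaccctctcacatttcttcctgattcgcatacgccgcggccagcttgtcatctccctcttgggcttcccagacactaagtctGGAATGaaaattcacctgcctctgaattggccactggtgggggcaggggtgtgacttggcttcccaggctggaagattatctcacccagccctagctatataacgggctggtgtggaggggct
F3 (chr3:121723287-121723536, plus strand): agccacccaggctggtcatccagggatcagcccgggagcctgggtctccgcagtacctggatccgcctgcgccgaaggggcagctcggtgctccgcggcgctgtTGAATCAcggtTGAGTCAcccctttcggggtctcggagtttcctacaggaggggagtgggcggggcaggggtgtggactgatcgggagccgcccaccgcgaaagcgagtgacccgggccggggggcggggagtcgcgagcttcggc
Axl (chr7:25788734-25788983, minus strand): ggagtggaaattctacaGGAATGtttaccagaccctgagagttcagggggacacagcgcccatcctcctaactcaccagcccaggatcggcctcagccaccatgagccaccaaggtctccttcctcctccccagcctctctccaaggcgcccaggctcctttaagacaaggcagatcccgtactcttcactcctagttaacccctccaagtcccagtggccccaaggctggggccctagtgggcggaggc
Amotl2 (chr9:102717554-102717803, plus strand): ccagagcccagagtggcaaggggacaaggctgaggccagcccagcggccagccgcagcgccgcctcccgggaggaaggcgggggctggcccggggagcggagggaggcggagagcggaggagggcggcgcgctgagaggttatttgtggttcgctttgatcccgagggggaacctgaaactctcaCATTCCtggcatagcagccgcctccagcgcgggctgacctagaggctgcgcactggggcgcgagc

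The search covered 300 bases, 250 before and 50 after each start, and 9 of the 10 genes matched the table by symbol, with 11 start sites in all. Tead1 was not among them. TEAD letters were found for 7 of the 9 genes, Yap1, Wwtr1, Ankrd1, Amotl2, Lats2, Crim1 and Axl, beside 16.6% of the 27025 genes in the table and 14.7% of its 32851 promoter windows. Ankrd1 held 2 matches, at 210 and 123 bases before the start, whereas at least 2 were found in 1.36% of all windows. F3, the member that rose most, held no TEAD letters in this window but 2 AP-1 matches, at 146 and 135 bases before the start, while 7.81% of all windows held at least 1 and 0.46% at least 2. No AP-1 letters were found for the other 8 genes. Amotl2 held a TEAD match 65 bases before its start and did not pass against control with either compound. The same was true of Yap1 and Wwtr1, which also held TEAD matches. A match thus did not go with a call against control at every gene, and a gene that did not pass may still have changed. A match of letters is a description and shows no binding.

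**Figure D1:**
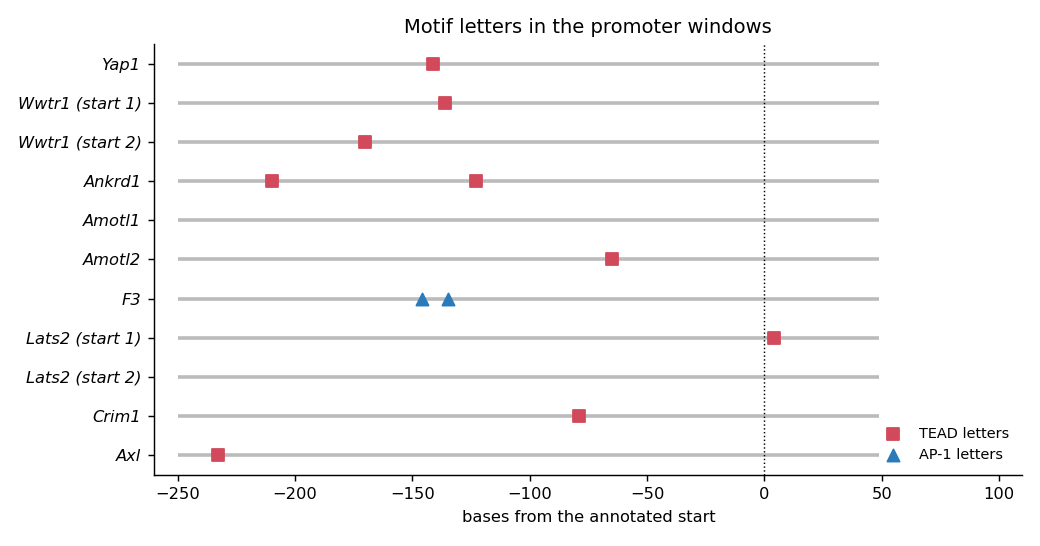
Positions of motif letters in the promoter windows of 9 genes (11 start sites). The x axis is distance in bases from the annotated start, dotted at 0, grey lines are the windows searched, squares are TEAD letters and triangles AP-1 letters, on either strand. Ankrd1 shows 2 squares, F3 has 2 triangles and no square, and Amotl1 has neither.

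Yap1 encodes the coactivator YAP. Its log2 intensity was 9.06, 8.97 and 8.98 in the control arrays, 8.92, 8.87 and 8.88 with HA155, and 9.01, 9.17 and 9.22 with LPA. The HA155 arrays lay below all others, whereas the lowest LPA array fell among the controls. The difference of LPA from control was 0.13 (SE 0.07, 95% interval -0.02 to 0.27, limma adjusted p = 0.194), which allows a change of up to 1.21-fold. HA155 against control measured -0.11 (95% interval -0.26 to 0.03, limma adjusted p = 0.787). Between the LPA and HA155 groups Yap1 did differ, by 0.24 (SE 0.07, limma adjusted p = 0.0180). That call was lost without HA155 array 5 or 6 or LPA array 9, with adjusted p up to 0.0643, and without LPA array 7 Yap1 passed against control as well (0.19, limma adjusted p = 0.0464).

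Wwtr1 encodes TAZ, the paralog of YAP. It measured 9.07, 8.94 and 9.02 in control, 9.01, 9.08 and 8.96 with HA155, and 9.05, 9.26 and 9.13 with LPA. All 3 groups overlapped. The difference was 0.14 for LPA against control (95% interval -0.02 to 0.29, limma adjusted p = 0.191) and 0.01 for HA155 against control (95% interval -0.15 to 0.16, limma adjusted p = 0.994).

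Tead1 encodes a DNA-binding partner through which YAP and TAZ reach their targets. The control arrays were nearly identical, at 9.60, 9.60 and 9.61, while the HA155 arrays read 9.32, 9.50 and 9.32 and the LPA arrays 9.76, 10.15 and 9.90. No 2 groups overlapped, with HA155 lowest and LPA highest. Tead1 rose with LPA by 0.33 (SE 0.09, 95% interval 0.13 to 0.54, limma adjusted p = 0.0229) and was 0.56 higher with LPA than with HA155 (limma adjusted p = 9.57e-04). HA155 against control measured -0.23 (95% interval -0.43 to -0.02), which was not past the threshold after adjustment (limma adjusted p = 0.538). The rise with LPA was the least stable of the 6: it lost its call without any 1 of the 3 control arrays, with array weights, and in a fit of the compared groups alone, with adjusted p up to 0.0705. A dimmer probe set of Tead1 showed differences of 0.32 for LPA and -0.14 for HA155 from the control mean.

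Of the target genes, F3 encodes tissue factor, the membrane protein that starts blood coagulation. Its levels were 10.18, 10.12 and 10.22 in control, 9.89, 10.13 and 10.14 with HA155, and 11.04, 11.16 and 11.11 with LPA. Every LPA array stood at least 0.82 above every other array. F3 rose with LPA by 0.93 (SE 0.075, 95% interval 0.77 to 1.10, limma adjusted p = 8.78e-06), a change larger in size than that of 98.4% of the genes tested. It kept this call in all 17 alternative fits, between 0.90 and 0.96. The difference of HA155 from control, -0.12, lay within the spread (95% interval -0.28 to 0.05, limma adjusted p = 0.839).

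Axl encodes a receptor tyrosine kinase for the ligand Gas6. The arrays read 9.24, 9.12 and 9.13 in control, 9.02, 9.09 and 8.92 with HA155, and 9.67, 9.67 and 9.69 with LPA. The 3 LPA arrays were almost equal and lay above the rest, and the HA155 arrays lay below the controls without overlap. The rise with LPA was 0.51 (SE 0.06, 95% interval 0.37 to 0.65, limma adjusted p = 1.47e-04). With HA155 the difference was -0.15 (95% interval -0.29 to -0.02), and it did not pass after adjustment (limma adjusted p = 0.533). LPA stood 0.67 above HA155 (limma adjusted p = 1.77e-05), and the LPA calls for Axl held in all 17 alternative fits.

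Ankrd1 encodes an ankyrin-repeat protein that is abundant in striated muscle and widely used as a readout of YAP. It measured 5.84, 5.66 and 5.88 in control, 5.82, 6.23 and 6.10 with HA155, and 6.37, 6.62 and 6.28 with LPA. The LPA arrays were the highest, and HA155 overlapped the controls while reaching close to the lowest LPA array. Ankrd1 rose with LPA by 0.63 (SE 0.12, 95% interval 0.37 to 0.88, limma adjusted p = 0.00228), in all 16 alternative fits that tested it. HA155 against control was 0.25 (95% interval -0.0034 to 0.51, limma adjusted p = 0.624), the opposite sign to Tead1 and Axl. The control level lay just above the filter level of 5.59, so the size of its change is uncertain. LPA against HA155 (0.38, limma adjusted p = 0.0335) lost its call in 7 of 16 alternative fits, among them those without HA155 array 4 or 6 or LPA array 7 or 8 (adjusted p up to 0.143).

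Lats2 encodes a kinase that phosphorylates YAP and TAZ and is itself induced by them, a negative feedback. Levels were 8.05, 7.90 and 8.02 in control, 8.05, 7.97 and 7.82 with HA155, and 8.24, 8.42 and 8.27 with LPA. The LPA arrays stood apart and the other groups overlapped; the value of control 1 was also listed for HA155 array 4. Lats2 rose with LPA by 0.32 (SE 0.08, 95% interval 0.15 to 0.49, limma adjusted p = 0.0112) and passed in all alternative fits but the one without control 2 (limma adjusted p = 0.0537). HA155 against control measured -0.04 (95% interval -0.21 to 0.13).

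Crim1 encodes a transmembrane protein that binds bone morphogenetic proteins. It read 8.90, 8.67 and 8.68 in control, 8.74, 8.82 and 8.75 with HA155, and 9.08, 9.10 and 9.00 with LPA. Control 1 lay above the HA155 arrays and below all LPA arrays. The rise with LPA was 0.31 (SE 0.07, 95% interval 0.16 to 0.47, limma adjusted p = 0.00837), and it passed in all 17 alternative fits. HA155 against control measured 0.02 (95% interval -0.14 to 0.18).

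Amotl1 and Amotl2 encode angiomotin-like proteins, which tether YAP at cell junctions. Amotl1 measured 8.13, 8.04 and 8.01 in control, 8.17, 8.09 and 8.02 with HA155, and 7.99, 8.26 and 8.14 with LPA, with the LPA arrays spanning both other groups. Amotl2 measured 9.87, 9.82 and 9.77 in control, 9.80, 9.74 and 9.74 with HA155, and 9.79, 9.91 and 9.80 with LPA, also overlapping. For LPA against control the difference was 0.07 for Amotl1 (95% interval -0.10 to 0.24, limma adjusted p = 0.555) and 0.01 for Amotl2 (95% interval -0.12 to 0.14, limma adjusted p = 0.905). The upper bounds correspond to 1.18-fold and 1.10-fold. HA155 against control gave 0.04 for Amotl1 (95% interval -0.13 to 0.21) and -0.06 for Amotl2 (95% interval -0.19 to 0.07).

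**Figure D2:**
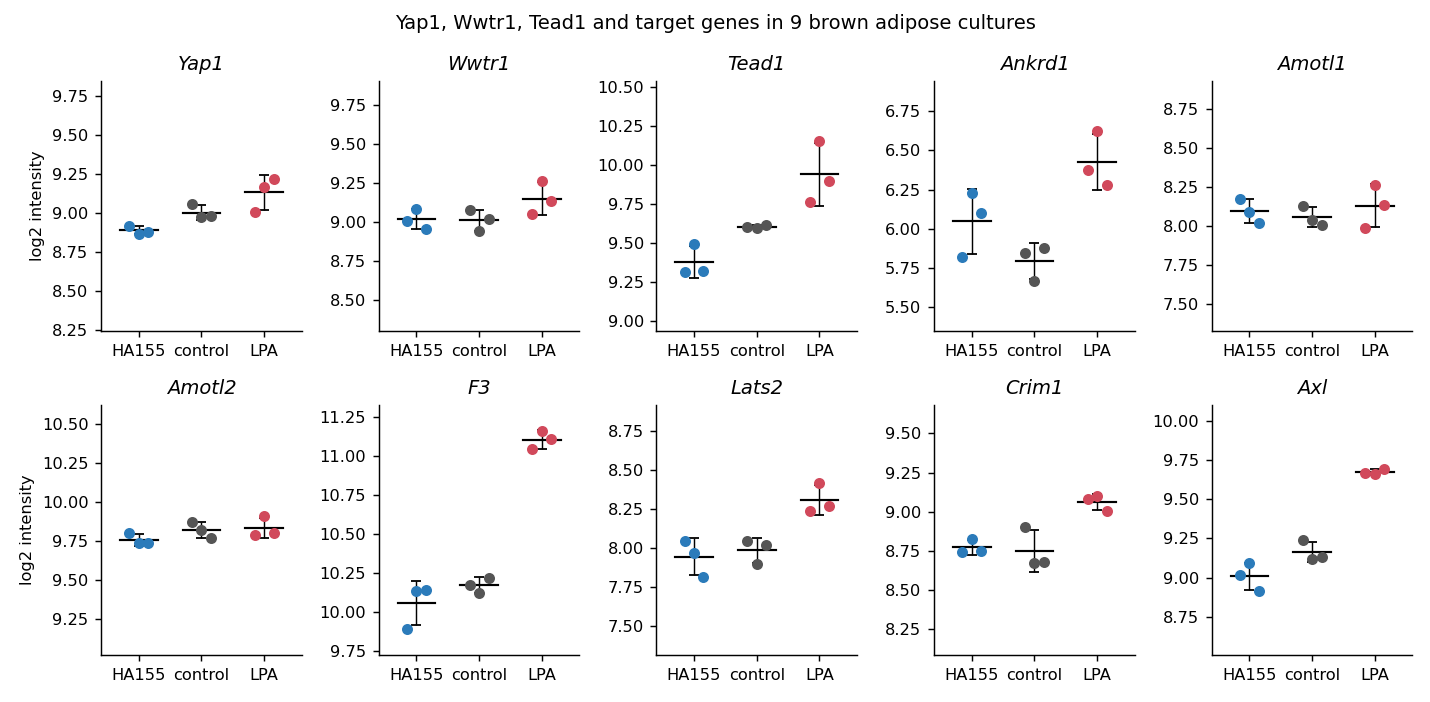
Log2 intensity (y axis, the same span in every panel) of the 10 genes in the HA155, control and LPA groups (x axis), with each point 1 array, horizontal bars the mean and whiskers the SD of 3 arrays. F3 and Axl show LPA arrays clear of the rest, while Amotl1 and Amotl2 overlap in all groups.

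Over the 10 genes the median difference was 0.32 for LPA against control and -0.05 for HA155 against control, beside medians of 0.01 and 0.00 over all genes tested. With LPA all 10 differences were above 0, from 0.01 to 0.93, as were 51.4% of all genes, and for 6 of the 10 no LPA array overlapped a control array (17.5% of all genes were higher without overlap). With HA155, 6 of the 10 lay below control, as did 49.03% of all genes. Yap1, Tead1 and Axl, 3 of the 10, did so without overlap, as did 7.9% of all genes. Limma called 0 of the 10 for HA155, and 2, Tead1 and Axl, had an unadjusted p below 0.05, as did 8.11% of all genes. None passed in any alternative fit. Between LPA and HA155 all 10 differences were above 0, as were 51.3% of all genes. Limma called 7 of the 10 higher with LPA at an adjusted p below 0.05, the 6 named above and Yap1, where 13.7% of all genes were. The comparisons share arrays and are not independent of each other. LPA array 8, which lay farthest from the other groups on the first principal component (28.7, against 19.6 and 20.8 for the other LPA arrays), was the highest LPA array for 8 of the 10 genes, for 49.7% of the genes that rose with LPA and for 32.5% of all genes. Without it the same number, 6 of 10, rose with LPA.

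**Figure D3:**
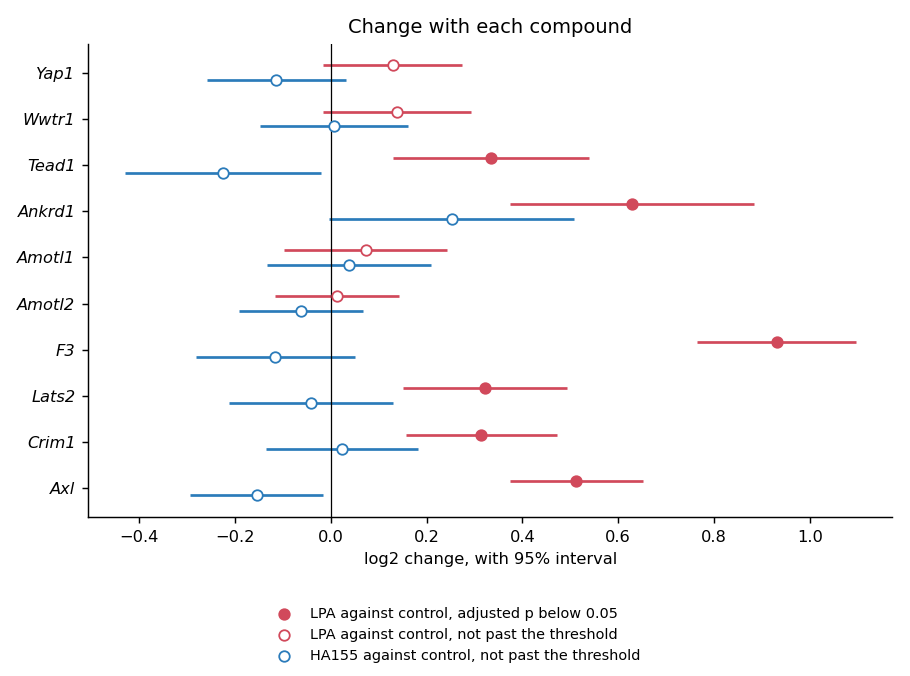
Log2 change (x axis) of each gene (y axis) for LPA and HA155 against the same control arrays, with 95% intervals from limma. Filled points passed at an adjusted p below 0.05: 6 genes with LPA and none with HA155.

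Among the 22 tested genes of the Hippo core and upstream list, 4 rose with LPA and none fell, with a median of 0.13. Over all genes, 12.2% rose and 10.8% fell. Amot, the founding angiomotin, rose from 6.69, 6.50 and 6.49 in control to 6.92, 7.44 and 7.40 with LPA, by 0.69 (SE 0.13, limma adjusted p = 0.00224), and held in all 17 alternative fits. Whether it differed from Amotl1 and Amotl2 was not tested. The others were the kinase scaffold gene Sav1 (0.23), the kinase gene Taok3 (0.30) and the junction protein gene Tjp1 (0.26), which were less stable. Sav1 lost its call without control array 2, Taok3 without control array 3, without LPA array 9 or with array weights, and Tjp1 in 6 of 17 fits, among them those without control array 2 or 3 or LPA array 8 or 9. The highest adjusted p over these alternatives was 0.0640, 0.0814 and 0.119. The atypical cadherin gene Dchs1 measured 0.35 (limma adjusted p = 0.074) and Rassf1 0.21 (limma adjusted p = 0.0769). With HA155 none of the 22 passed, where 1.03% of all genes did. Their median was 0.01, and 2 had an unadjusted p below 0.05 (8.11% of all genes). Stk3 had no probe set of its own and Wwc1 was under the filter.

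Of 6 tested genes for other TEAD factors and Vgll cofactors, which bind TEADs, 2 rose with LPA and 1 fell (median 0.10). Over all genes, 12.2% rose and 10.8% fell. Vgll3, described as a brake on adipocyte differentiation, rose by 0.66 (SE 0.15, limma adjusted p = 0.00777), from 8.95, 8.71 and 8.72 in control to 9.17, 9.84 and 9.35 with LPA. Its HA155 arrays, at 8.29, 8.55 and 8.33, lay below every control, but that difference of -0.41 did not pass (limma adjusted p = 0.435). Vgll4, which competes with YAP for TEADs, fell by 0.29 (SE 0.08, limma adjusted p = 0.0218). Tead3 rose by 0.33 (SE 0.10, limma adjusted p = 0.0303), while Tead2 (0.22, limma adjusted p = 0.0556), Tead4 (-0.01) and Vgll2 (-0.22) did not pass. Vgll4 lost its call in 5 of 17 alternative fits, among them those without control array 1 or 2 or LPA array 7 or 9 (adjusted p up to 0.0776). Tead3 lost it in 6, among them those without control array 1 or 2 or LPA array 8 or 9 (adjusted p up to 0.106). Without LPA array 8, of this list Vgll3 alone was called higher. None of the 6 passed with HA155, where 1.03% of all genes did, and 1 had an unadjusted p below 0.05 (8.11% of all genes).

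Of 22 other genes listed as YAP and TAZ targets, 9 rose with LPA and 2 fell, with a median of 0.13 beside 0.01 over all genes, of which 12.2% rose and 10.8% fell. Among the rises, those of smallest p were Myof, a membrane-repair protein (0.75), Ddah1, which breaks down methylated arginines (0.74), the RNA-binding protein gene Rbms3 (0.64), Igfbp3 (0.51) and the stress gene Gadd45a (0.41), with limma adjusted p of 0.00126 or less. Of the other calls, Nuak1 (0.21), Nuak2 (0.35) and Ptpn14, which fell by 0.23, were lost in 12, 5 and 3 of 17 alternative fits (adjusted p up to 0.124, 0.0943 and 0.0608), and these were named after their values were seen. Nuak1 was lost without any 1 array other than LPA array 7, Nuak2 without control array 3 or LPA array 8 or 9, and Ptpn14 without control array 2 or LPA array 7. Tgm2, which encodes a protein cross-linking enzyme, went the other way. It read 7.96, 8.09 and 8.09 in control, 8.61, 8.70 and 8.79 with HA155, and 7.52, 7.54 and 7.42 with LPA, so that no groups overlapped. It fell with LPA by 0.56 (SE 0.07, limma adjusted p = 1.42e-04) and rose with HA155 by 0.65 (SE 0.07, limma adjusted p = 0.00129), with both calls held in all 17 alternative fits. The Tgm2 values of control arrays 2 and 3 were identical, which can understate the spread. Igfbp3, an IGF-binding protein gene, fell with HA155 by 0.44 (limma adjusted p = 0.0227), from 10.0 in each control array to 9.46, 9.55 and 9.70. Its 3 control values were identical, which understates the spread, and its call with HA155 was lost in 5 of 17 alternative fits, each of which left out 1 array (control 1, 2 or 3, HA155 4 or 5; highest adjusted p = 0.121). Tgm2 and Igfbp3 were the 2 genes of the 3 lists that passed with HA155, in a comparison in which 1.03% of all genes did.

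**Figure D4:**
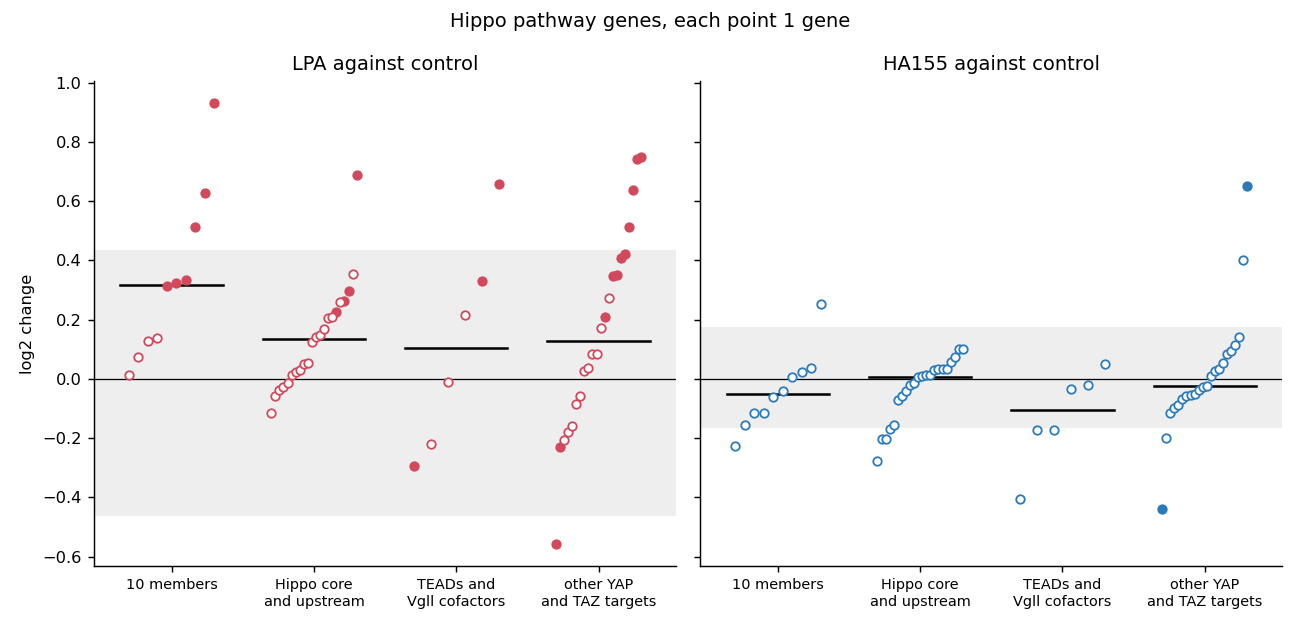
Log2 change (y axis) with LPA (left) and HA155 (right) for the 10 genes and 3 related lists (x axis), each point 1 gene, filled where the adjusted p was below 0.05. Black bars are list medians and the grey band spans the 5th to 95th percentile of all genes tested, -0.46 to 0.43 for LPA and -0.16 to 0.17 for HA155.

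Markers of cell types moved with LPA beside these genes. Of all genes tested, 12.2% rose with LPA and 10.8% fell. All 10 general adipocyte markers fell (median -1.39), and their mean log2 intensity per array ran from 11.1 to 11.2 in control, 11.2 to 11.3 with HA155 and 9.84 to 9.88 with LPA. In the preadipocyte and fibroblast list 5 of 8 rose, Pdgfra, Pdgfrb, Dlk1, Col1a1 and Thy1. The rise of Dlk1 (0.25) did not pass in a fit of all genes with no filter (limma adjusted p = 0.0559). The array means of this list lay between 9.47 and 9.55 in control, 9.21 and 9.33 with HA155, and 9.86 and 9.96 with LPA. Of the skeletal muscle list, which bears on Ankrd1, 6 of 10 rose, and the mean ran from 6.43 to 6.47 in control, 6.45 to 6.55 with HA155 and 6.75 to 6.91 with LPA. The muscle-lineage genes Myod1, Myog and Pax7 stayed between 5.74 and 6.36 in the group means, near the filter level, and Myf5 was under it. In bulk RNA, a change in the share of a cell type and a change in RNA per cell cannot be told apart, and the part of these markers in the results above was not tested.

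The counts of the other lists stand beside the same 12.2% of all genes that rose with LPA and 10.8% that fell. Of the smooth muscle and pericyte list 2 of 7 rose and 2 fell, with Acta2 at 0.54 and Mcam at -0.96, and array means overlapped between groups. Of 6 endothelial markers 1, Tek, rose, and of 3 Schwann-cell markers 1, Ncam1. Pecam1, Kdr and Emcn, which define endothelium, and Adgre1, Itgam, Mrc1 and Fcgr1, which mark macrophages, were under the filter. None of 4 macrophage, 3 mesothelial and 1 blood-cell markers passed with LPA or HA155. As for the tissue label, the adipocyte markers were bright, while Ucp1, Cidea, Dio2 and Elovl3 of the 8 brown adipocyte markers were under the filter. Of the other 4, Cox7a1, Cox8b and Ppargc1a fell with LPA, and the median of the 4 was -1.22. Over all 8 brown adipocyte markers, with those under the filter, array means did not overlap between groups. They ran from 6.33 to 6.38 in control, 6.80 to 6.88 with HA155 and 5.72 to 5.79 with LPA. With HA155 the markers that passed were Cidec, Cox7a1, Cox8b and Myh1, which rose, and Dlk1 and Mcam, which fell. Of all genes tested, 1.03% passed with HA155. The fall of Mcam (-0.32) did not pass in the fit of all genes with no filter (limma adjusted p = 0.0707). Cidea, not tested because of the filter, averaged 4.92 in control and 6.39 in HA155 arrays, and passed in the fit of all genes with no filter (limma adjusted p = 0.00108). No fold is given for it, since its control mean was below the filter level.

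**Figure D5:**
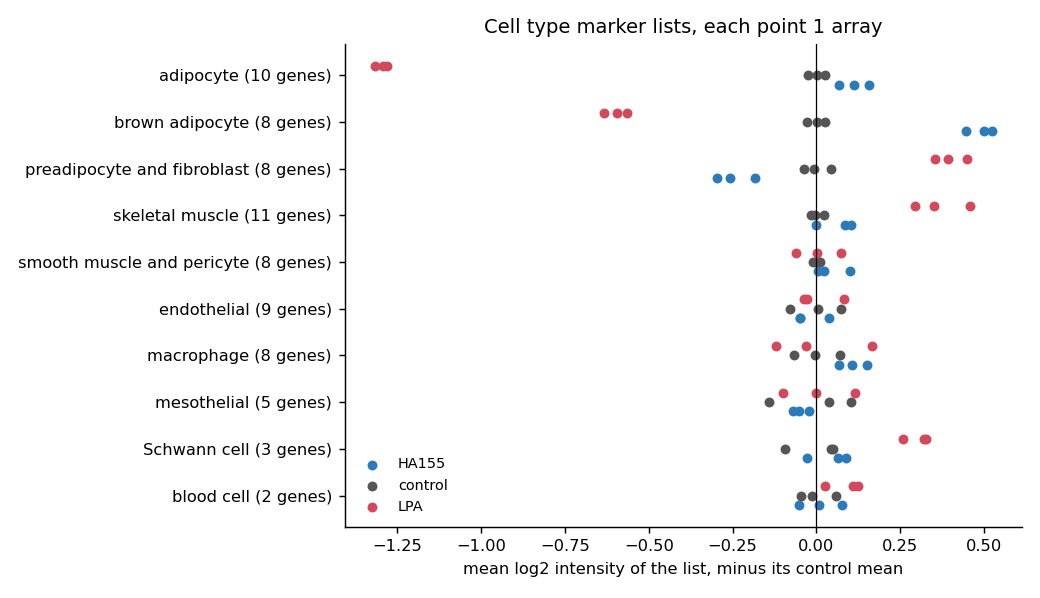
Mean log2 intensity of each cell type marker list per array, minus the list's control mean (x axis), by list (y axis) and group, each point 1 array. LPA arrays lie below control for the adipocyte and brown adipocyte lists and above it for the preadipocyte, skeletal muscle and Schwann cell lists.

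By the measure of likeness, Pearson's r over the 9 arrays against every other gene tested, the 3 genes most like Ankrd1 were Ier3ip1 (r = 0.973), Edil3 (0.969), which encodes a secreted integrin ligand, and Itga1 (0.965), an integrin subunit. Edil3 rose with LPA by 0.87 (limma adjusted p = 1.92e-04) and Itga1 by 0.51 (limma adjusted p = 3.43e-04), and with HA155 they measured 0.33 and 0.25, neither past the threshold. The 3 most like Wwtr1 were Mbnl2 (r = 0.990), which encodes a splicing regulator, Bcl2l1 (0.968), a survival gene, and Adam19 (0.958), a membrane protease, none of which passed for LPA (limma adjusted p = 0.113, 0.153 and 0.0575). The arrays fall into 3 groups and these values are descriptions, picked as the highest of all genes tested.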

How the data were processed

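Total RNA of 9 cultures was hybridised to Affymetrix mouse gene arrays. Per the submitters' processing notes the deposited values are RMA output, given here as intensity rather than log2 (array medians 70.7 to 72.8), which was read from the values. The version of RMA was not given in the sources used here. RMA corrects background and equalises the arrays' distributions, so a global shift would be removed.

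Values were converted to log2 as they stood. Some values were identical between arrays. The pair that shared most, HA155 arrays 5 and 6, did so at 2649 of 35432 probe sets. Identical values within a group can understate its spread. The platform annotation gives 1 symbol for 21706 of 35432 probe sets, and the brightest was used per gene (9 of the 10 members have 1, Tead1 has 2). Genes whose mean lay under 5.59, the 40th percentile over probe sets, were dropped. Groups were compared with limma (version 3.58.1, R 4.3.3) in 1 fit of all 9 arrays with 6 residual degrees of freedom, two-sided, with Benjamini-Hochberg adjustment over 13335 genes at 0.05. Intervals are limma's and unadjusted. An exact test of 3 arrays against 3 cannot go below p = 0.1. The labels describe separate cultures, so p-values measure the spread between cultures, and a batch confounded with treatment could not be told apart from it. Tested on simulated data over 13335 genes, the fit recovered 16.0%, 74.6% and 99.1% of genes changed by 0.25, 0.5 and 1 for LPA against control. For HA155 against control it recovered 18.2%, 74.9% and 98.9%. Each simulation changed far fewer genes than the 3066 called for LPA against control, with independent normal noise. The recovery rates therefore need not hold for these data.

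The members and lists were chosen with earlier results of these data known. Named genes were the 10 members, the 6 of smallest p for LPA in each of 3 pathway lists, those called for HA155, and the cell type markers. The 4 promoters printed were chosen after their values were seen. Alternatives were other filters, probe set rules, an offset, centring, priors, array weights, fits of the compared groups alone, and leaving out each array.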

Additional observations from a re-analysis of the deposited data

How the results depend on the processing

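Each member was refitted under 17 alternative settings. For LPA against control 159 of the refits kept direction and call, 6 lost the call (5 for Tead1, 1 for Lats2), 1 gained it (Yap1) and 3 turned sign. The number of members that rose ran from 4 (without control array 2) to 7 (without LPA array 7), and for LPA against HA155 from 5 (without HA155 array 6) to 7. Sign turned for values near 0 that had not passed: for Amotl2 with LPA, -0.0096 with array weights, -0.014 without control array 3 and -0.024 without LPA array 8, and for Amotl1 between LPA and HA155, -0.034 with array weights, -0.0028 without HA155 array 6 and -0.032 without LPA array 8. Leaving out 1 array otherwise gave up to 0.038 for the former and 0.11 for the latter. For HA155 against control the turned values were Wwtr1 at -0.030 and -0.028 without control array 2 and HA155 array 5, Amotl1 at -0.0012 without HA155 array 4, Lats2 at 0.022 without HA155 array 6, and Crim1 at -0.017, -0.013 and -0.0030 without control arrays 2 and 3 and HA155 array 5. The values farthest on the other side with an array left out were 0.038, 0.076, -0.093 and 0.099 for the 4 genes in that order. Genes called for HA155 over the whole table, 138, were 86 without the filter and 338 with array weights, and ranged from 39 (without control array 2) to 232 (without LPA array 8) when an array was left out. The cause was not tested. Ankrd1 fell under the stricter filter and has no value there. Without LPA array 8, a setting chosen after seeing the data, 3 of the Hippo core list, 1 of the TEAD list and 7 of the other targets were higher with LPA (4, 2 and 9 with it), and with HA155 1 of the core list was lower (0 with it) and 2 of the other targets were higher (1 with it). No paired analysis was possible because the subject numbers differ between the groups.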
